A study of Homo sapiens with 17 samples.

Results

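The genes described here encode the nuclear subunits of the mitochondrial respiratory chain and of ATP synthase, with the chain's small accessory and inhibitor proteins. They were taken by symbol, as every gene whose probe set carried a single symbol of the NDUFA, NDUFB, NDUFC, NDUFS, NDUFV, NDUFAB1, SDH, UQCR, CYC1, COX4 to COX8 or ATP5 families. The rule found 81 of the 17958 genes tested: 34 of complex I, 3 of complex II, 9 of complex III, 17 of complex IV and 18 of ATP synthase (complex V). It also took in a pseudogene, UQCRBP1, and it left out 9 probe sets that carried a symbol of these families beside others. Expression was measured on 17 arrays of 2 human lung adenocarcinoma lines, A549 and H2122, both known to have lost functional LKB1 (the kinase encoded by STK11). Each line carried a pBABE retrovirus with wild-type LKB1 (3 arrays per line), with K78I, a kinase-dead LKB1 (3 arrays per line), or with no insert (pBABE, 3 arrays of A549 and 2 of H2122). All groups had been kept in 5% serum, were selected with 1.0 µg/mL puromycin and were harvested while dividing, so the controls carry the vector and the drug history too. The study asked which genes LKB1 changes against these controls, and the labels name neither clones nor separate cultures, so p-values measure the spread between these arrays only. Levels are log2 values, and a difference is a difference of group means on that scale. In bulk RNA, fewer cells expressing a gene and less of its RNA per cell cannot be told apart.

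The respiratory chain lies in the inner mitochondrial membrane. Complex I takes electrons from NADH and complex II from succinate, coenzyme Q carries them to complex III, cytochrome c carries them on to complex IV, and there oxygen is reduced. The proton gradient that complexes I, III and IV build drives ATP synthase. All the members are encoded in the nucleus, while a few core subunits of complexes I, III, IV and V are encoded in mitochondrial DNA; the mitochondrially encoded genes were not analysed here. LKB1 is best known as the kinase that activates AMPK, a sensor of cellular energy.

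Several arrays stand apart, and the counts of members called are given with and without them. STK11 lay between 9.42 and 10.23 on the A549 LKB1 arrays, but A549 pBABE replicate 3 stood at 10.52, against 6.88 and 7.38 on the other pBABE arrays, and A549 K78I replicate 2 at 7.14, against 10.54 and 10.42 on the other K78I arrays. In H2122, STK11 lay between 11.20 and 11.35 with LKB1 or K78I and at 6.33 and 6.22 with pBABE. LKB1 arrays exceeded the mean of all control arrays of their line, pooled, by 0.95 in A549 (two-sided p = 0.464, exact permutation test) and by 1.99 in H2122 (p = 0.339, exact permutation test). In this comparison the K78I controls carry the transcript too. The labels of 3 H2122 arrays contradict themselves, title against source name: in the source name, pBABE replicate 2 is called LKB1, LKB1 replicate 3 is called K78I and K78I replicate 3 is called pBABE. Titles were followed, and STK11 was at 6.22 on that pBABE array and at 11.26 on that K78I array. On both arrays STK11 goes with the title and not with the source name. For LKB1 replicate 3 it cannot tell the labels apart, since LKB1 and K78I arrays both carry the transcript. On A549 K78I replicate 2, H2122 pBABE replicate 2 and A549 pBABE replicate 1, the mean of 11 cell cycle genes stood at −0.78, −1.42 and −0.32 relative to its line's mean, while on all other arrays it stood between −0.12 and 0.35. Epithelial markers checked the cells: KRT8, KRT18, KRT7 and CDH1 averaged at least 10.4 in both lines. EPCAM averaged 6.94 in A549, little above the median gene (6.46), and 11.23 in H2122, and KRT19 (4.83) was low in A549. All 5 fibroblast and all 5 endothelial markers lay below the median gene. Of 5 leukocyte markers, CD68 alone lay above the median gene, at 8.58 in A549 and 8.91 in H2122. Of 5 lung lineage markers, NKX2-1, SFTPB and SFTPC lay below it in both lines, FOXA2 lay above it in A549 (8.41) and SCGB1A1 in H2122 (7.92). SCGB1A1 also differed by construct in H2122, at 10.09, 8.58 and 9.62 with LKB1, against 8.28, 6.75 and 8.16 with K78I and 5.97 and 5.89 with pBABE; its part in the H2122 results was not tested.

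Subunit genes leaned lower with LKB1 in H2122, by small amounts, while in A549 few differed and the lean was slighter; there were n = 3 LKB1 arrays against 6 controls in A549 and against 5 in H2122. In A549, 3 of the 81 genes fell and 0 rose, where 2.95% of all genes fell and 5.49% rose (limma, adjusted p under 0.05; 8.44% called in all), so the members' share lower is near that of all genes. In H2122, 10 fell and 0 rose, where 2.29% of all genes fell and 4.99% rose (7.28% in all). The median difference over the members was −0.07 in A549, beside −0.02 over all genes, and −0.19 in H2122, beside −0.04 over all genes. The difference was below 0 for 58 of 81 members in A549 (71.6%, against 54.3% of all genes) and for 78 of 81 in H2122 (96.3%, against 57.7% of all genes). Centring each array on its median gave 68 and 78 members below 0 and medians of −0.14 and −0.23, with −0.09 and −0.07 over all genes, and moved the split of all A549 calls to 774 higher and 718 lower, beside 985 and 530 without centring. The members are mostly bright genes, 53 of 81 lying in the brightest of 4 equal groups of genes, whose own median difference was −0.02 in A549 and −0.05 in H2122.

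**Figure D1:**
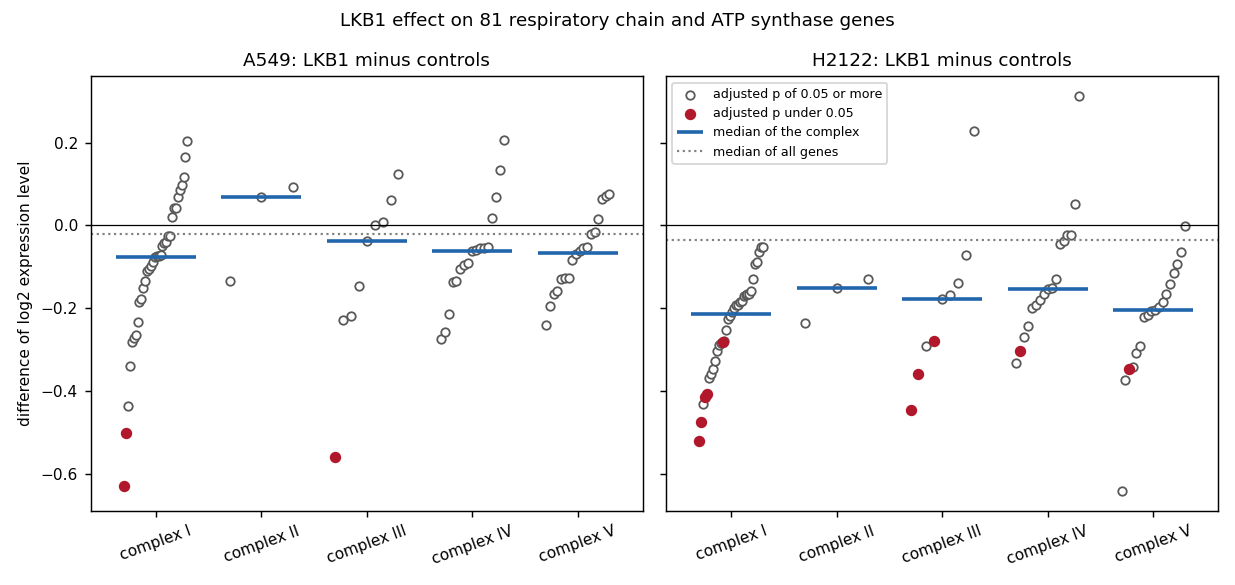
Difference of log2 level, LKB1 minus the mean of K78I and pBABE, for each of the 81 genes (points) grouped by complex, in A549 (left) and H2122 (right). Filled points had an adjusted p under 0.05, blue bars are the median of a complex and the dotted line is the median of all genes; in H2122 the points of complexes I, II and V all lie below 0.

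The shift was shared by the arrays of H2122 and less so by those of A549. The mean level of all 81 genes, relative to its line's mean, was −0.17, −0.13 and −0.09 on the H2122 LKB1 arrays, against 0.03, 0.07 and 0.17 on the K78I arrays and 0.08 and 0.04 on the pBABE arrays. Each H2122 LKB1 array was thus below each control array. In A549 the means were −0.09, −0.04 and −0.05 on the LKB1 arrays, against 0.06, −0.08 and −0.02 on the K78I arrays and 0.04, 0.13 and 0.05 on the pBABE arrays. The A549 groups overlapped through K78I replicate 2, the array that had low STK11 and the lowest cell cycle genes of its line; its part in the result was not tested. The pooled SD of this mean between replicates was 0.0517 in A549 and 0.0532 in H2122. Gene by gene, 11 members in A549 and 30 in H2122 had every LKB1 array below every control array, beside 6.65% and 8.82% of all genes; 0 and 1 members had every LKB1 array above, beside 8.46% and 8.54% of all genes.

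**Figure D2:**
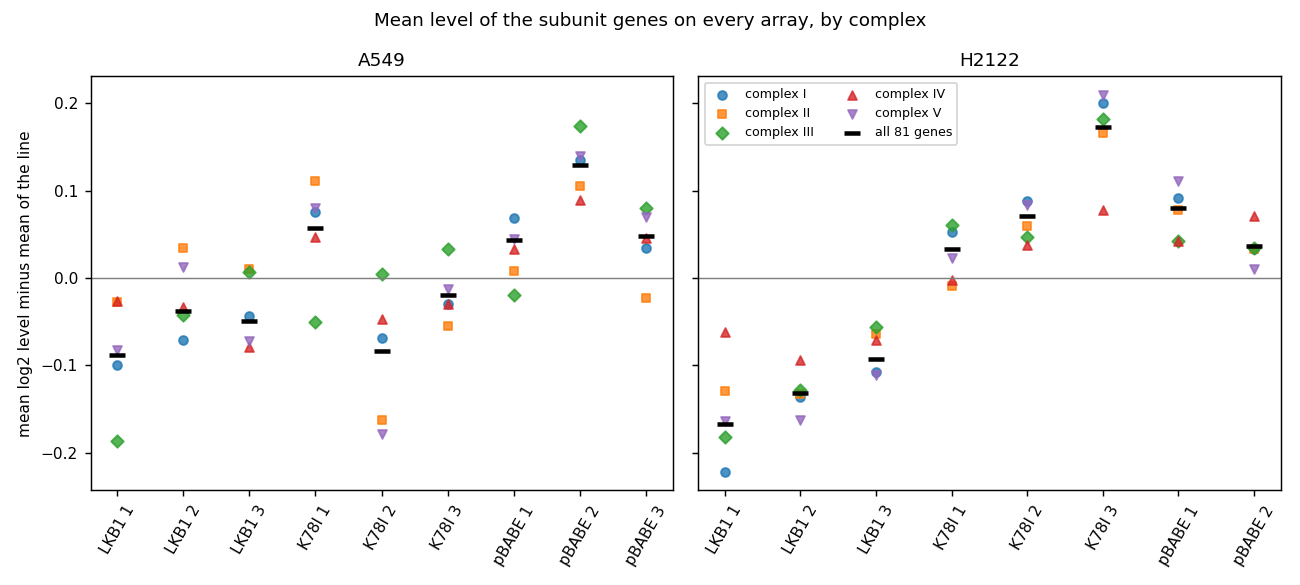
Mean log2 level of the subunit genes on every array, minus the mean of the line, by complex (coloured markers) and over all 81 genes (black bars). The 3 H2122 LKB1 arrays lie at −0.17 to −0.09, below the 5 controls; in A549, K78I replicate 2 (−0.08) lies among the LKB1 arrays.

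Complex I, the NADH dehydrogenase and the largest complex, held the most calls by number. By share, complex III, with 9 genes, held more in each line: CYC1 in A549, and CYC1, UQCRC2 and UQCR11 in H2122. Of the 34 complex I genes, 2 fell in A549 and 5 in H2122, and their median difference was −0.08 in A549 and −0.21 in H2122. All 34 differences were below 0 in H2122 and 25 of 34 in A549. The calls differed between the lines: NDUFA9 and NDUFS4 in A549, and NDUFS7, NDUFV2, NDUFA7, NDUFS3 and NDUFA10 in H2122. A call in a single line does not show that lines differ, and the test of that difference is given further on.

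NDUFA9, an accessory subunit near the junction of the peripheral and membrane arms, had 9.26, 9.45 and 9.40 on the A549 LKB1 arrays, against 9.98, 9.90 and 9.60 with K78I and 10.05, 9.91 and 9.80 with pBABE. Every LKB1 array was below every control array, with a difference of −0.50 ± 0.13 (SE; adjusted p = 0.0209). In H2122 the same gene had 9.38, 9.10 and 9.17 with LKB1, against 9.43, 9.28 and 9.58 with K78I and 9.61 and 9.14 with pBABE, groups that overlap (−0.19 ± 0.13, adjusted p = 0.511). NDUFS4, an accessory subunit that helps hold the NADH-oxidising module on the complex, had 7.97, 7.85 and 8.09 with LKB1 in A549, against 8.25, 8.95 and 8.80 with K78I and 8.96, 8.42 and 8.24 with pBABE. The groups did not overlap, although both controls spread widely (−0.63 ± 0.17, adjusted p = 0.0278). In H2122 NDUFS4 was close in all groups, with 7.58, 7.72 and 7.68 with LKB1, against 7.58, 7.70 and 7.78 with K78I and 7.63 and 7.99 with pBABE (−0.09 ± 0.17, adjusted p = 0.87). The NDUFS4 call in A549 was lost in 8 of 32 alternatives, among them the mean of its probe sets (−0.43, adjusted p = 0.0769), and the adjusted p ran from 0.00201 to 0.115 over all of them. Leaving out A549 LKB1 replicate 1, 2 or 3 lost it each time (adjusted p = 0.0986, 0.115 and 0.07). The NDUFA9 call was lost without A549 LKB1 replicate 1 or 3 (0.113 and 0.0769) and without all 6 doubted arrays at once (0.0786).

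In H2122 the lowest complex I gene was NDUFS7, a core subunit that holds an iron-sulphur cluster next to the coenzyme Q site. It had 6.58, 7.01 and 7.08 with LKB1, against 7.41, 7.64 and 7.48 with K78I and 7.16 and 7.47 with pBABE. Replicate 1 was the lowest of the LKB1 arrays by far, yet the others were also below every control (−0.52 ± 0.12, adjusted p = 0.0146; −0.37 and 0.101 without that array, −0.44 and 0.0503 without pBABE replicate 2). In A549 its groups overlapped, at 7.46, 7.59 and 7.58 with LKB1, against 7.49, 7.57 and 7.52 with K78I and 7.69, 7.69 and 7.47 with pBABE. NDUFV2, a core iron-sulphur subunit of the NADH-oxidising module, had 9.27, 9.11 and 9.35 with LKB1 in H2122, against 9.55, 9.57 and 9.79 with K78I and 9.81 and 9.79 with pBABE (−0.47 ± 0.12, adjusted p = 0.0193). In A549 NDUFV2 showed no such gap: 9.56, 9.57 and 9.69 with LKB1, against 9.70, 9.25 and 9.73 with K78I and 9.52, 9.66 and 9.66 with pBABE (0.02 ± 0.11, adjusted p = 0.948). The identifier of the NDUFV2 probe set used lies among identifiers of chromosome 19, where RefSeq names a pseudogene NDUFV2P1, and the probe set that lies among those of chromosome 18, the gene's own, gave −0.48 in H2122 (adjusted p = 0.0184).

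NDUFA7, an accessory subunit of the peripheral arm, had 8.63, 8.59 and 8.77 with LKB1 in H2122, against 9.10, 8.94 and 9.23 with K78I and 9.15 and 8.95 with pBABE (−0.41 ± 0.11, adjusted p = 0.0329). Its A549 arrays were apart as well, at 8.83, 8.63 and 8.85 with LKB1, against 9.02, 9.00 and 9.03 with K78I and 9.31, 9.01 and 8.91 with pBABE, with a difference of −0.27 ± 0.10 that did not pass the test (adjusted p = 0.133). NDUFS3, a core subunit of the module that reduces coenzyme Q, had 9.04, 9.09 and 9.02 with LKB1 in H2122, against 9.39, 9.45 and 9.54 with K78I and 9.54 and 9.41 with pBABE (−0.42 ± 0.11, adjusted p = 0.0341). NDUFA10, an accessory subunit of the membrane arm, had 8.46, 8.49 and 8.55 with LKB1 in H2122, against 8.72, 8.88 and 8.81 with K78I and 8.78 and 8.73 with pBABE (−0.28 ± 0.08, adjusted p = 0.0376). All 3 of these genes had non-overlapping groups in H2122, and their calls held in 22, 21 and 16 of 32 alternatives, that of NDUFV2 in 28. The highest complex I differences were those of NDUFB6 in H2122 (−0.05 ± 0.10, adjusted p = 0.868) and of NDUFC2 in A549 (0.20 ± 0.11, adjusted p = 0.282), both accessory subunits of the membrane arm.

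These complex I genes allow a look at the DNA where their transcripts start, shown because 4 of them share a short sequence just past the start site. Only the 6 whose windows held a match to a searched motif are shown. The window of NDUFV2, also called in H2122, held no match to any of them and is left out. The windows below run 5′ to 3′ from 120 bases before the RefSeq start site to 30 bases from it on GRCh38.p14. Capitals mark matches to AAGATGGC, a core of the YY1 motif, in NDUFA9 (chr12:4648994-4649143, plus strand), NDUFS4 (chr5:53560519-53560668, plus strand), NDUFS7 (chr19:1383787-1383936, plus strand) and NDUFA7 (chr19:8321346-8321495, minus strand). In NDUFS3 (chr11:47578954-47579103, plus strand) they mark CCGGAAG, the ETS family core, on either strand, and in NDUFA10 (chr2:240025313-240025462, minus strand) TGACGTCA, the cyclic AMP response element.
NDUFA9: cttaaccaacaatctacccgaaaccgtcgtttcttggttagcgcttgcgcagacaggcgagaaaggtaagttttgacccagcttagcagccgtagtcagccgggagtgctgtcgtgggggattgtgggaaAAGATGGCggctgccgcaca
NDUFS4: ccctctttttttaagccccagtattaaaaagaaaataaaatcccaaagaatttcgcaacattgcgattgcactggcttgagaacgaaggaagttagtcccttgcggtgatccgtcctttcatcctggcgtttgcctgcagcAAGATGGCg
NDUFS7: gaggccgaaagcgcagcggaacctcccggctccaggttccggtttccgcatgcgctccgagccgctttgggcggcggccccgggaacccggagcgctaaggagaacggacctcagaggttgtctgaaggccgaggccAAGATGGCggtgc
NDUFA7: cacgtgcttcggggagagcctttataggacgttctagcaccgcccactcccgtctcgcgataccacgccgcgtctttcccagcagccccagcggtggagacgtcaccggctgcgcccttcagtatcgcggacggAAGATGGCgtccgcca
NDUFS3: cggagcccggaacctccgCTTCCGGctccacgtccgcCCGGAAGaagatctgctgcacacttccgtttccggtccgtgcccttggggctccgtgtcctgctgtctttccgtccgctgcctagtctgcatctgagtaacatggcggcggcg
NDUFA10: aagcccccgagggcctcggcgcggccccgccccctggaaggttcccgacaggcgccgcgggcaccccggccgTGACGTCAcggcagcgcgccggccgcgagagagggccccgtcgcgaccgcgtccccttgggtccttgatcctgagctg
The YY1 letters begin 11, 22, 18 and 15 bases past the start site in NDUFA9, NDUFS4, NDUFS7 and NDUFA7, and they hold ATG, so such a match can overlap a start codon. The ETS letters lie 102 and 83 bases before the start site of NDUFS3, and the cyclic AMP response element 48 bases before that of NDUFA10. Windows of 300 bases were at hand for 66 of the 81 members and for 13861 genes in all, and both strands were searched. AAGATGGC was in 10 member windows (15.2%), against 4.004% of all windows, and CCGGAAG in 17 (25.8%), against 14.5%. The 10-base palindromic consensus of NRF1, nuclear respiratory factor 1, was in 4 (6.06%, against 1.81%), CAAGGTCA, the site of oestrogen-related receptors, in 4 (6.06%, against 0.923%), and TGACGTCA in 3 (4.55%, against 2.67%). Complex I held 6 of the 10 windows with AAGATGGC, out of 31 complex I windows searched. The complex I genes with it besides the 4 shown were NDUFA3 and NDUFA6, neither of them called with LKB1. Complex III had it in 1 of 6, UQCRC1, whose H2122 LKB1 arrays were all above its controls. ATP synthase had it in 3 of 13: ATP5PB, which was called in the mean of lines, ATP5PF and ATP5PO. Complexes II and IV had it in 0 of 2 and 0 of 14. These are matches of letters, with no test, and binding was not measured.

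Complex III, which passes electrons from coenzyme Q to cytochrome c, held the gene that fell most steadily. CYC1, which encodes the haem-bearing cytochrome subunit of the complex, had 9.19, 9.39 and 9.53 with LKB1 in A549, against 9.79, 10.07 and 9.95 with K78I and 10.13, 9.98 and 9.64 with pBABE. In H2122 it had 8.92, 8.87 and 9.19 with LKB1, against 9.48, 9.34 and 9.54 with K78I and 9.43 and 9.44 with pBABE. The groups did not overlap in either line, and CYC1 was the only member called in both: −0.56 ± 0.12 in A549 (adjusted p = 0.0097) and −0.45 ± 0.13 in H2122 (adjusted p = 0.045). Over the alternatives the A549 call was lost in 1 of 32, without A549 LKB1 replicate 1 (−0.47, adjusted p = 0.0747; range 0.00257 to 0.0747). The H2122 call was lost in 16 of 32 (adjusted p from 0.0187 to 0.394). Both ranges are of limma's adjusted p.

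UQCRC2, a core protein of complex III, had 11.14, 11.08 and 11.10 with LKB1 in A549, against 11.28, 11.26 and 11.27 with K78I and 11.35, 11.44 and 11.40 with pBABE. The 3 A549 groups were each tight and none overlapped, yet the difference missed the threshold (−0.23 ± 0.07, adjusted p = 0.073). In H2122 UQCRC2 had 11.29, 11.19 and 11.24 with LKB1, against 11.44, 11.50 and 11.60 with K78I and 11.58 and 11.46 with pBABE (−0.28 ± 0.08, adjusted p = 0.0392), a call that held in 15 of 32 alternatives (adjusted p up to 0.429). UQCR11, a small subunit of the complex, had 6.85, 6.69 and 7.04 with LKB1 in H2122, against 7.24, 7.17 and 7.39 with K78I and 7.09 and 7.25 with pBABE (−0.36 ± 0.10, adjusted p = 0.0445), a call that held in 12 of 32 alternatives (adjusted p up to 0.414), and was the highest complex III member in A549 (0.12 ± 0.10, adjusted p = 0.532). UQCRC1, the other core protein, was the exception in H2122. It had 9.09, 8.99 and 9.06 with LKB1, against 8.97, 8.70 and 8.84 with K78I and 8.86 and 8.74 with pBABE, and was the only member whose H2122 LKB1 arrays were all above its controls (0.23 ± 0.10, adjusted p = 0.194). The medians of the 9 genes were −0.04 in A549 and −0.18 in H2122.

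**Figure D3:**
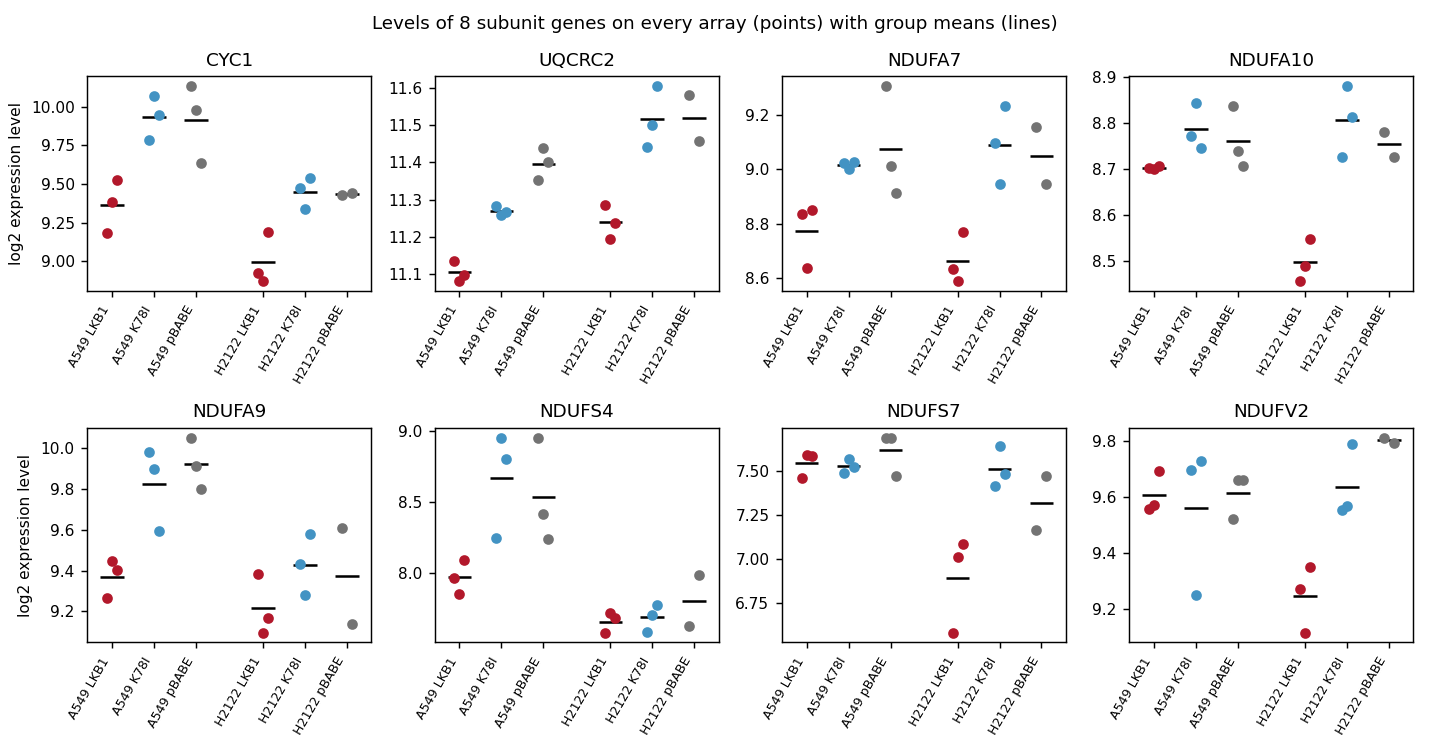
Log2 expression level of 8 subunit genes on every array (points; red LKB1, blue K78I, grey pBABE) with group means (lines); each panel has its own axis, which does not start at 0. CYC1, UQCRC2, NDUFA7 and NDUFA10 have their LKB1 arrays below all controls in both lines; for NDUFA10 in A549 the gap is within rounding (8.71 and 8.71).

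Complex IV, the oxidase that hands electrons to oxygen, held a single call among 17 genes. COX5B, a zinc-binding subunit on the matrix side, had 11.04, 10.94 and 11.14 with LKB1 in H2122, against 11.35, 11.39 and 11.45 with K78I and 11.28 and 11.29 with pBABE. The groups did not overlap (−0.30 ± 0.09, adjusted p = 0.046), but the call held in 12 of 32 alternatives. RefSeq names 8 pseudogenes after COX5B, and the arrays' probes may share sequence with them. Median differences were −0.06 in A549 and −0.15 in H2122, with 13 and 15 of 17 genes below 0. The lowest differences were those of COX7A2 in A549 (−0.27 ± 0.10, adjusted p = 0.0945) and of COX7A2L, a protein that joins complexes III and IV into supercomplexes, in H2122 (−0.33 ± 0.10, adjusted p = 0.0615).

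Complex IV has isoform pairs that differ between tissues. The 6 isoforms known from muscle, lung or testis, COX4I2, COX6A2, COX6B2, COX7A1, COX7B2 and COX8C, had median levels of 4.40, 5.62, 3.32, 4.34, 3.42 and 4.20, all below the median gene (6.46). Their partners COX4I1, COX6A1, COX6B1, COX7A2, COX7B and COX8A had median levels of 8.33, 12.28, 10.35, 8.86, 7.88 and 10.61. Probe sets differ in brightness for the same amount of RNA, so a pair's gap is no ratio of transcripts. The most positive complex IV differences belonged to 2 of these dim isoforms, COX6B2 in A549 (0.21 ± 0.11, adjusted p = 0.32) and COX6A2 in H2122 (0.31 ± 0.13, adjusted p = 0.207), and 0 of the 6 passed the test with LKB1 in either line. Without these 6, the difference was below 0 for 74 of 75 members in H2122 and for 53 of 75 in A549.

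ATP synthase, which lets protons back through the membrane to make ATP, held 1 call among 18 genes. ATP5PD, which encodes subunit d of the stalk that holds the catalytic head still, had 10.55, 10.47 and 10.43 with LKB1 in H2122, against 10.68, 10.84 and 10.89 with K78I and 10.89 and 10.83 with pBABE (−0.35 ± 0.09, adjusted p = 0.0269). That call held in 21 of 32 alternatives, with differences from −0.40 to −0.15 and adjusted p up to 0.651. Its A549 difference was −0.05 ± 0.09 (adjusted p = 0.8). A larger but more scattered difference was that of ATP5F1D, subunit delta of the central rotor. It had 9.35, 8.82 and 9.33 with LKB1 in H2122, against 9.95, 9.78 and 10.11 with K78I and 9.99 and 9.35 with pBABE (−0.64 ± 0.20, adjusted p = 0.0648). All 18 differences were below 0 in H2122, with a median of −0.21, and 14 of 18 in A549, with a median of −0.07. The lowest in A549 was ATP5PF, a coupling factor of the stalk (−0.24 ± 0.12, adjusted p = 0.268), and the highest was ATP5MJ, a small membrane protein of the enzyme (0.08 ± 0.09). In H2122 the highest was ATP5MC3, which encodes the ring subunit c (−0.00 ± 0.11).

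Complex II, succinate dehydrogenase, works in the tricarboxylic acid cycle too, and its subunits are all nuclear. None of its 3 measured genes passed the limma test with LKB1, and 0 reached an unadjusted p under 0.05 in either line. The differences in H2122 ran from −0.24 ± 0.11 for SDHD, a membrane anchor, to −0.13 ± 0.09 for SDHA, the flavoprotein that oxidises succinate, and those in A549 from −0.13 ± 0.11 for SDHD to 0.09 ± 0.09 for SDHA. The probe sets used for SDHC and SDHD lie among identifiers of chromosomes 17 and 1, where RefSeq names pseudogenes of them. On the probe sets of their own chromosomes the A549 and H2122 differences were −0.08 and −0.10 for SDHC and −0.21 and −0.04 for SDHD, again short of the threshold.

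Averaging the effect over both lines brought more of these small differences past the test. In this contrast 16 members fell and 0 rose, where 5.32% of all genes fell and 8.25% rose (13.6% in all), and 33 reached an unadjusted p under 0.05 (26.5% of all genes), all of them lower. The median was −0.14, beside −0.03 over all genes, and 75 of 81 differences were below 0 (57.2% of all genes). CYC1 had the lowest p (−0.50 ± 0.09, adjusted p = 0.00139), followed by UQCRC2 (−0.25 ± 0.05, adjusted p = 0.00522) and NDUFA7 (−0.34 ± 0.08, adjusted p = 0.00741). Complex I gave 9 of the 16: NDUFA7, NDUFA9 (−0.34), NDUFB9 (−0.25), NDUFC1 (−0.31), NDUFS1 (−0.23), NDUFA10 (−0.18), NDUFS7 (−0.27), NDUFB5 (−0.24) and NDUFS3 (−0.25), with adjusted p from 0.0196 to 0.0487 beyond NDUFA7. NDUFS1 encodes the largest core subunit, with several iron-sulphur clusters, and NDUFB5, NDUFB9 and NDUFC1 encode accessory subunits of the membrane arm. Complex III gave CYC1, UQCRC2 and UQCR10 (−0.22), complex IV gave COX7A2 (−0.23), and ATP synthase gave ATP5PD (−0.20), ATP5PB (−0.21), which forms the stalk with it, and ATP5IF1 (−0.25), the inhibitor that blocks the enzyme when it would run backwards. CYC1 and NDUFA7 kept their calls in all 31 alternatives (adjusted p from 0.00046 to 0.0259 and from 0.00437 to 0.0453), and UQCRC2 in 30 of 31, where grouping H2122 by source name gave 0.0699. The others were less steady: NDUFA9 and NDUFB9 held in 27 of 31, NDUFC1 in 23, NDUFS1 in 19, COX7A2 in 18, UQCR10 in 17, NDUFA10 and NDUFS7 in 15, ATP5PD, ATP5PB and ATP5IF1 in 14, and NDUFB5 and NDUFS3 in 13.

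CYC1, UQCRC2, NDUFA7 and NDUFA10 were the 4 members whose LKB1 arrays lay below all controls in both lines. For NDUFA10 in A549 the highest LKB1 array stood at 8.7054, against 8.7071 on the lowest control array. The share of all genes lower in this way in both lines was not counted. In single lines it was 6.65% of all genes in A549 and 8.82% in H2122. In all, 55 of 81 members had differences below 0 in both lines (67.9%, against 36.1% of all genes), 3 in A549 only, 23 in H2122 only and 0 above 0 in both. The difference was lower in H2122 than in A549 for 63 of 81 members, and for 9361 of all 17958 genes. The test of the difference between lines called 0 members (limma), where it called 3.6% of all genes (1.63% higher in A549 and 1.98% lower), and 10 members had an unadjusted p under 0.05 (15% of all genes). The lowest p-values were those of UQCR11 (A549 minus H2122 effect 0.48 ± 0.14, adjusted p = 0.0847), NDUFV2 (0.49 ± 0.16, adjusted p = 0.122), COX6A2 (−0.57 ± 0.18, adjusted p = 0.125) and NDUFS7 (0.49 ± 0.17, adjusted p = 0.146). For NDUFS4, the A549 call that stood farthest from its H2122 value, it was −0.54 ± 0.24 (adjusted p = 0.291).

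**Figure D4:**
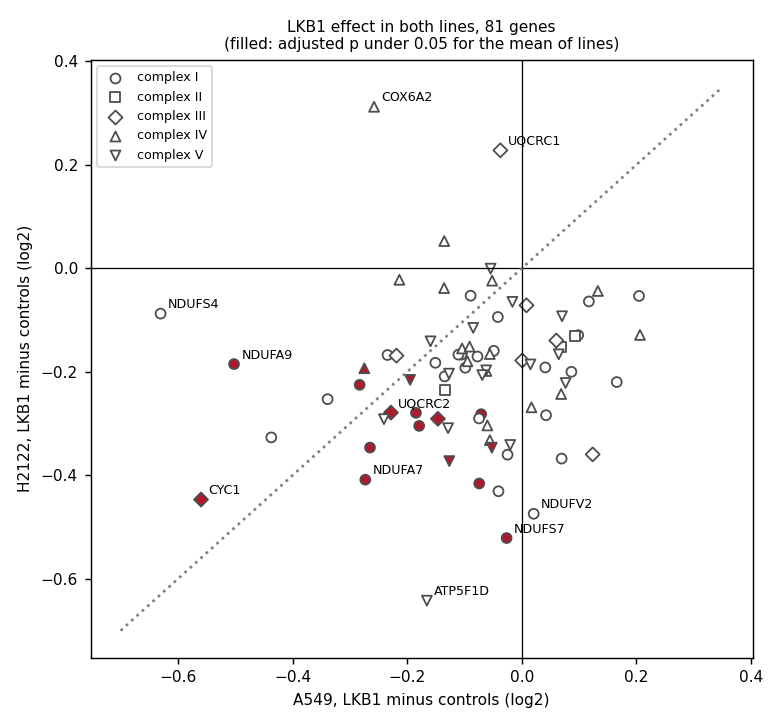
LKB1 minus controls in H2122 (vertical) against A549 (horizontal) for the 81 genes, on the log2 scale, with marker shape by complex; filled points had an adjusted p under 0.05 for the mean of lines and the dotted diagonal marks equal effects. Most points (55) lie at the lower left, and 63 lie below the diagonal.

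The label doubts bear on H2122 most. Grouping by source name runs against STK11 on H2122 pBABE replicate 2 and K78I replicate 3. With that grouping 0 members were called in H2122, but then only 1 gene of all 17958 was. Still, 69 of 81 members were below 0, with a median of −0.16. Without the 3 arrays whose labels conflict, 0 members and 422 genes were called, with 76 members below 0 and a median of −0.23. Without the 3 low cell cycle arrays, 18 members were called, 17 of them lower, and 2345 genes. Leaving out a single array gave between 0 and 13 members in H2122: 0 without LKB1 replicate 1, 1 without LKB1 replicate 2, 2, 3 and 6 without K78I replicates 3, 2 and 1, 4 without LKB1 replicate 3, and 5 or 6 without any of the A549 LKB1 arrays or A549 pBABE replicate 2, which enter through the shared spread. In A549, 3 members were called without the 2 arrays at odds with STK11 or without the low cell cycle arrays, 0 without LKB1 replicate 1 and 1 without LKB1 replicate 3. For the mean of lines, 8 were called without all 6 doubted arrays, 5 of them among the 16 (CYC1, NDUFA7, NDUFC1, NDUFS3 and UQCRC2). The lowest counts for the mean of lines on leaving out a single array were 3 without A549 LKB1 replicate 1 and 5 without H2122 K78I replicate 3; it was 6 without A549 pBABE replicate 2, A549 LKB1 replicate 3, H2122 LKB1 replicate 1 or H2122 LKB1 replicate 2, 7 without H2122 K78I replicate 2 or LKB1 replicate 3, and 9 without A549 pBABE replicate 1. In A549, CYC1 alone was called without all doubted arrays, and in H2122 NDUFV2 alone.

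Set against each control alone, with arrays grouped by title, the members' median shift in A549 was smaller against K78I than against pBABE. The median difference there was −0.03 against K78I, with 49 of 81 members below 0 (51.5% of all genes), and −0.11 against pBABE, with 68 of 81 (55.8% of all genes). K78I against pBABE, where by title neither has an active kinase, gave a median of −0.09, with 68 of 81 members below 0 (54.6% of all genes). That median was at least as far from 0 as the A549 median against both controls (−0.07). These 3 comparisons share arrays, and without K78I replicate 2 their medians were −0.07, −0.11 and −0.05. STK11 was at odds with the label on A549 pBABE replicate 3 and on A549 K78I replicate 2. The members' mean relative to the line was 0.05 on the former and −0.08 on the latter. It was 0.04 and 0.13 on the other A549 pBABE arrays and 0.06 and −0.02 on the other A549 K78I arrays. Whether the shift differs by control with pBABE replicate 3 and K78I replicate 2 regrouped was not tested. Calls were few: CYC1 (−0.57, adjusted p = 0.029) and NDUFS4 (−0.70, adjusted p = 0.0481) against K78I, where 5.25% of all genes were called (3.56% higher, 1.69% lower; 19.7% before adjustment), and CYC1 (−0.55, adjusted p = 0.0319) and NDUFA9 (−0.55, adjusted p = 0.0369) against pBABE, where 5.5% were (3.78% higher, 1.72% lower; 17.8% before adjustment). In H2122 the medians were −0.23 against K78I and −0.19 against pBABE, with 76 and 74 of 81 members below 0, and 0.05 for K78I against pBABE, which turned to −0.14 with arrays grouped by source name and to −0.02 without the doubted arrays. NDUFS7 was called against K78I (−0.62, adjusted p = 0.0167, 3.89% of all genes called, 2.98% higher and 0.908% lower) and NDUFV2 against pBABE (−0.56, adjusted p = 0.031, 5.77% of all genes called, 4.17% higher and 1.6% lower). K78I against pBABE gave 0 calls among the members and among all genes (0%) in both lines by limma, with 1 member at an unadjusted p under 0.05 in each, NDUFS3 in A549 (−0.29; 2.63% of all genes) and NDUFB6 in H2122 (0.34; 7.02% of all genes).

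Between the lines, members differed about as often as all genes did. On control arrays, 15 members were higher in A549 and 20 were lower, where 20.3% of all genes were higher and 20.1% lower (40.3% in all), and the median was −0.01. Without all 6 doubted arrays 25 were called, 13 higher and 12 lower, and 22 of them were among the 35. ATP5PO, the stalk protein that grips the catalytic head, had the widest gap, at 7.71, 7.72 and 7.86 with K78I and 7.71, 7.82 and 7.71 with pBABE in A549, against 9.10, 9.15 and 9.40 with K78I and 9.17 and 9.57 with pBABE in H2122. The A549 arrays were all below the H2122 arrays (−1.54 ± 0.09, adjusted p = 1.27e-09), and on LKB1 arrays the levels were 7.55, 7.61 and 7.72 in A549, against 8.95, 9.00 and 9.01 in H2122. Next were SDHD (−0.96), ATP5F1D (−0.77), UQCRB (−0.74), ATP5MF (−0.73), ATP5IF1 (−0.65), SDHC (−0.60) and NDUFV3 (−0.56). All 3 complex II genes were lower in A549, and SDHC and SDHD remained so on their own-chromosome probe sets (−0.40, adjusted p = 0.00322, and −0.69, adjusted p = 2.53e-05). ATP synthase had 7 genes lower and 3 higher, complex IV 1 lower and 4 higher, complex I 6 lower and 7 higher, and complex III 3 lower and 1 higher. The only probe set of ATP5MK, an ATP synthase gene, lies among identifiers of chromosome X, where RefSeq names a pseudogene of it. With own-chromosome probe sets 34 members were called, 15 higher and 19 lower.

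The genes higher in A549 controls included those that fell there with LKB1. NDUFS4 was the highest (0.85 ± 0.14, adjusted p = 0.000171), followed by CYC1 (0.48). NDUFA9 (0.47), NDUFB11 (0.47), NDUFA6 (0.42) and NDUFA8 (0.29), accessory subunits of complex I, were higher too, as were ATP5PF (0.47) and ATP5F1A (0.28), the catalytic head's alpha subunit. The line difference and the A549 LKB1 effect share the A549 control arrays, so their values are only set side by side: NDUFS4 had 0.85 and −0.63, CYC1 0.48 and −0.56, and NDUFA9 0.47 and −0.50. On LKB1 arrays NDUFA9 had 9.26, 9.45 and 9.40 in A549, against 9.38, 9.10 and 9.17 in H2122, groups that overlap.

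**Figure D5:**
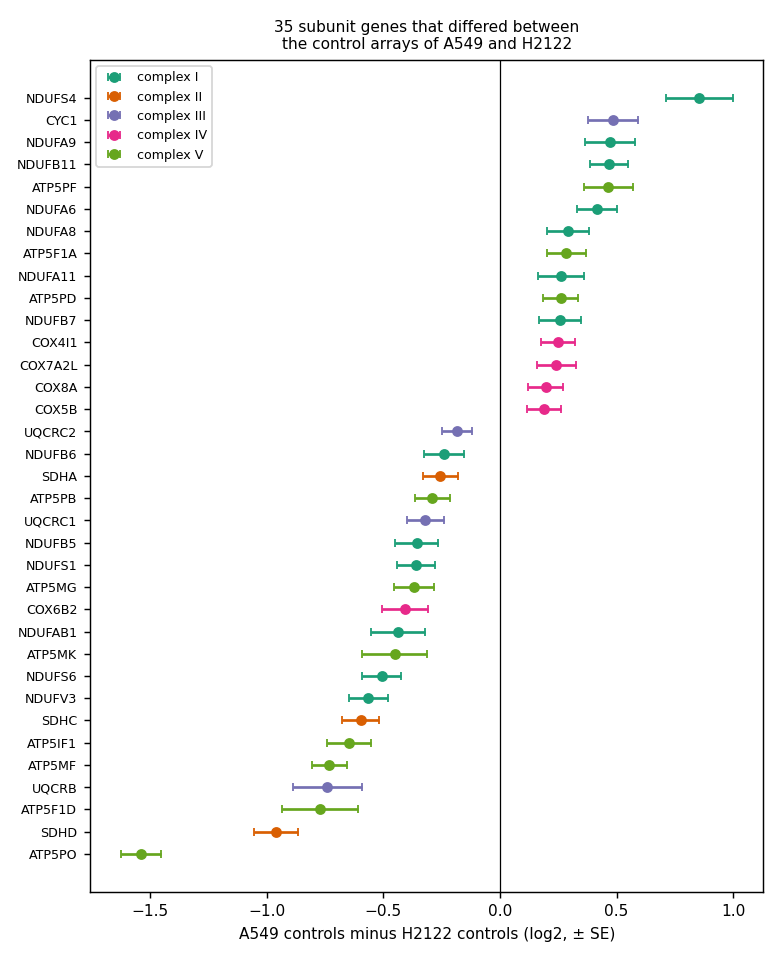
Difference of log2 level between control arrays, A549 minus H2122, with its standard error, for the 35 members with an adjusted p under 0.05, coloured by complex. ATP5PO (−1.54) lies farthest below 0 and NDUFS4 (0.85) farthest above.

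Other genes of the pathway were read from lists of known genes. Of 47 assembly factors measured, which build the complexes and leave them, 3 fell in A549, 5 in H2122 and 12 in the mean of lines, and 0 rose in any, beside 2.95%, 2.29% and 5.32% of all genes lower. Without all 6 doubted arrays 1, 3 and 12 fell, and 0 fell in H2122 with arrays grouped by source name. Among them were COA6 (−0.51) and COX10 (−0.50), for complex IV, and NDUFAF4 (−0.57), for complex I, in A549, and HIGD2A (−0.46), ATPAF2 (−0.40) and NDUFAF1 (−0.57) in H2122; their medians were −0.15 and −0.25, and all 47 were below 0 in H2122 (57.7% of all genes), against 44 without the doubted arrays and 41 by source name. Of 28 genes of cytochrome c, coenzyme Q and carriers, 3 fell and 1 rose in A549 and 2 fell in H2122, with medians of −0.24 and −0.19. Of all genes, 2.95% fell and 5.49% rose in A549, and 2.29% fell and 4.99% rose in H2122. Without all 6 doubted arrays the median of the 28 was −0.18 in each line. With arrays grouped by source name, 0 of them fell in H2122. COQ9, which serves coenzyme Q synthesis, fell in both lines (−0.55 in A549 and −0.57 in H2122; H2122 adjusted p = 0.0853 without the doubted arrays), as did DHODH, which feeds electrons to coenzyme Q while making pyrimidines (−0.50 and −0.64). VDAC2 (−0.39) fell and UCP2, a carrier of the inner membrane, rose (1.26) in A549 (UCP2 adjusted p = 0.0764 without the doubted arrays). Of 24 genes of the tricarboxylic acid cycle and pyruvate dehydrogenase, 3 fell and 2 rose in A549 and 3 fell and 1 rose in H2122, with medians of −0.14 and −0.23. The medians were −0.19 and −0.21 without the doubted arrays. Grouped by source name, 0 of the 24 fell and 0 rose in H2122. PDHX, a structural part of pyruvate dehydrogenase, fell in both lines (−0.38 and −0.34). PDP1, the phosphatase that switches the dehydrogenase on, rose in both (0.67 and 1.49).

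Of 19 regulators of mitochondrial biogenesis and mitochondrial DNA, 1 fell in A549, 1 in H2122 and 5 in the mean of lines, beside 2.95%, 2.29% and 5.32% of all genes; without all 6 doubted arrays 3, 0 and 5 fell. PPARGC1A, the coactivator PGC1-alpha, had 5.06, 4.40 and 4.55 with LKB1 in A549, against 6.70, 10.16 and 7.44 with K78I and 9.62, 7.91 and 5.97 with pBABE (−3.30 ± 0.79, adjusted p = 0.0164). In H2122 it had 4.84, 6.39 and 5.19 with LKB1, against 5.63, 6.12 and 6.90 with K78I and 6.70 and 8.95 with pBABE (−1.55 ± 0.82, adjusted p = 0.333). Its 3 highest arrays, at 10.16, 9.62 and 8.95, were the 3 with low cell cycle genes. Without them the differences were −2.34 ± 0.47 in A549 (adjusted p = 0.00662) and −0.99 ± 0.50 in H2122 (adjusted p = 0.229), and with arrays grouped by source name the H2122 difference turned to 0.50 (adjusted p = 0.894). In the mean of lines POLRMT (−0.42), which transcribes mitochondrial DNA, TWNK (−0.44), its helicase, POLG2 (−0.36), an accessory subunit of its polymerase, and TFB2M (−0.36), its transcription factor, fell as well, the POLG2 call being lost without the doubted arrays (adjusted p = 0.172).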

How the data were processed

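RNA from 17 samples was measured on 1 Affymetrix array each, with 130 ng of RNA as input, per the labels' protocols. The deposited values are log2 levels that the authors made by RMA; Affymetrix Expression Console 1.1 is named per the submitters' processing notes. RMA makes the arrays' distributions alike, so a shift of most genes cannot be seen. Which genome build the array annotation used was not given in the sources used here. Of 33297 probe sets, 19181 had a single symbol, 2055 had several and 12061 were not listed in the platform annotation; 19143 identifiers matched RefSeq and 0 symbols changed. The brightest probe set was kept for each of 17958 genes, and 7 members had several. Array medians lay between 5.62 and 5.73, and precision is limited by how many arrays each group has.

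Groups came from the sample titles. A limma 3.58.1 model in R 4.3.3 was fitted over all genes and all 6 groups (11 residual and 3.8 prior degrees of freedom), with empirical Bayes variances and Benjamini-Hochberg adjustment over all genes in each of 11 comparisons at 0.05. "Controls" is the mean of the K78I and pBABE group means. The fit was tested on simulated data. STK11 was compared by an exact two-sided permutation test, for which the control arrays of a line were pooled. The members, gene lists and tests were chosen with earlier results of these data known. Genes were named by rule: STK11, CYC1, NDUFA9, NDUFV2 and PPARGC1A, members called in a comparison of LKB1, the highest and lowest difference of each complex and line, the 8 highest and 8 lowest called between the lines' controls, complex IV isoform pairs, and up to 6 called genes of each other list. Other members are named with their values. The own-chromosome probe sets, the removal of every doubted array together, the other settings of the other gene lists and the 11 cell cycle genes were chosen after seeing the data. Probe sets were placed by the chromosomes of the 10 nearest identifiers, and 47 members have pseudogenes named after them in RefSeq. Promoter windows came from RefSeq on GRCh38.p14. Figures were drawn with matplotlib 3.10.9.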

Additional observations from a re-analysis of the deposited data

How the results depend on the processing

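The replicate numbers were not taken to pair the samples, since not every same-numbered pair correlated over 0.1: the correlations ran from −0.644 to 0.352 in A549, while in H2122 they ran from 0.0639 to 0.42 and 6 of 7 were over 0.1. With the replicate number as a block, limma called 2 members in A549, 5 in H2122 (4 of the 10: NDUFA7, NDUFS7, NDUFV2 and UQCR11), 9 in the mean of lines and 30 between the lines' controls, and 0, 1, 2 and 1 for A549 against K78I, A549 against pBABE, H2122 against K78I and H2122 against pBABE.

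For LKB1 against both controls in A549 (3 members called), array weights gave 13 and leaving out every doubted array gave 1; the median moved from −0.07 to −0.14 with median centring. In H2122 (10 called), grouping by source name gave 0, leaving out the 3 arrays with conflicting labels 0, leaving out the low cell cycle arrays 18, fitting the line alone 3 and leaving out every doubted array 1. In the mean of lines (16 called), these gave 5 by source name, 6 without conflicting labels and 8 without every doubted array, and median centring and array weights gave 29 each. For the difference between lines (0 called), array weights gave 2. Against K78I in A549 (2 called), the source name, the conflicting, STK11, low cell cycle and doubted arrays and the line alone each gave 0, and the mean of probe sets 1. Against pBABE in A549 (2 called), the source name, conflicting labels and low cell cycle arrays each gave 1, array weights 18, and the line alone and every doubted array 0. Against K78I in H2122 (1 called), the source name, conflicting labels, line alone and every doubted array gave 0, the STK11 arrays 5, low cell cycle arrays 16, the dimmest 30% left out 2, quantile normalization 4, a trended robust prior 3 and array weights 41. Against pBABE in H2122 (1 called), the source name, conflicting labels, array weights and every doubted array gave 0, the STK11 arrays 3, low cell cycle arrays 2, and median centring, quantile normalization and the trended prior 4, 3 and 3. The causes were not tested. Fitting each line alone gives no mean of lines or difference between them, and without the conflicting labels H2122 pBABE keeps 1 array, assumed to vary like the other groups.

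Leaving out each array in turn gave 0 to 4 members in A549, 0 to 13 in H2122, 3 to 17 in the mean of lines and 0 to 0 for the difference between lines. It gave 0 to 3 against either control in A549, 0 to 6 against K78I and 0 to 5 against pBABE in H2122, 0 to 0 and 0 to 2 for K78I against pBABE in A549 and H2122, and 27 to 37 between the lines. Medians ran from −0.0976 to −0.0627 in A549 and from −0.219 to −0.169 in H2122. NDUFV2 in A549 (0.02, not called) changed sign without the STK11 arrays (−0.0443), the low cell cycle arrays (−0.0798) or every doubted array (−0.0791), and with median centring (−0.0476) and array weights (−0.0189). Leaving out each array in turn, it ran from −0.0564 (K78I replicate 2) to 0.0632, and was −0.0028 without replicate 1 of pBABE and below 0 without replicate 3 of LKB1 (−0.02).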
